A study of Mus musculus with 30 samples.

Results

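The 10 genes described here are made in neutrophils or mark them: S100a8, S100a9, Ly6g, Csf3r, Cxcr2, Retnlg, Camp, Ngp, Ltf and Lcn2. They were chosen by name from what is known of neutrophil granules and surface proteins, matched by gene identifier across the 3 count tables, and all 10 were found among 55401 genes. The data came from tumours of 4T1, a mouse mammary carcinoma line, here carrying green fluorescent protein, in mice labelled wild-type. Animals were given IgG1 as control (CTRL) or C269, an antibody that neutralises extracellular NAMPT, at 2.5 mg/kg; dosing was 2 times a week over 1 month, and the labels give no dose for the control antibody. The 6 groups, with 5 libraries each, were sorted tumour cells from CTRL and C269 animals (4T1 CTRL, 4T1 C269), bead-isolated CD4+ T cells (CD4 CTRL, CD4 C269) and bead-isolated CD8+ T cells (CD8 CTRL, CD8 C269). None of the labels names neutrophils among the cells prepared.

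Neutrophils are made in the bone marrow under the growth factor G-CSF, and as they mature they fill their granules in waves: primary granule enzymes first, then the secondary granule proteins, then gelatinase granules and the surface receptors of the circulating cell. S100a8 and S100a9 pair as calprotectin, which fills neutrophil cytosol, and tumours such as 4T1 are known to drive large numbers of these cells into blood and tissue. Some of the granule proteins, among them lactoferrin and lipocalin-2, are also made by epithelia.

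Libraries are called by the number of their column, 1 to 5 for 4T1 CTRL, 6 to 10 for 4T1 C269, 11 to 15 for CD4 CTRL, 16 to 20 for CD4 C269, 21 to 25 for CD8 CTRL and 26 to 30 for CD8 C269. Counts assigned to genes ran from 2005579 to 5176494 per library, and levels are given as CPM, the count scaled to a common total of these. T cell markers (10 genes) summed to 13.6 to 218 CPM in 4T1 CTRL, 1219 to 2900 in CD4 CTRL and 3914 to 5026 in CD8 CTRL. In 4T1 CTRL the epithelial genes Krt8 and Epcam were at 89.7 ± 52.9 and 22.6 ± 13.99 CPM (mean ± SD, n = 5). Libraries 9 and 10 of 4T1 C269 stood apart from all others: 10 markers of intestinal goblet and colon epithelium summed to 7666 and 8596 CPM there and to at most 147 CPM in the other 28, so results on 4T1 C269 are given with and without them. The labels do not say whether replicates were separate animals, so p-values measure the spread between these samples, which may be technical.

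S100a8 (ENSMUSG00000056054, chr3:90668978-90670035, plus strand) and S100a9 (ENSMUSG00000056071, chr3:90692632-90695721, minus strand) lie close together. Csf3r (ENSMUSG00000028859, chr4:126024550-126044440, plus) encodes the receptor of G-CSF, Cxcr2 (ENSMUSG00000026180, chr1:74153989-74161246, plus) the receptor of the neutrophil chemokines CXCL1, CXCL2 and CXCL5, and Ly6g (ENSMUSG00000022582, chr15:75155240-75159126, plus) the surface antigen by which mouse neutrophils are usually stained. Retnlg (ENSMUSG00000022651, chr16:48872621-48874496, plus) encodes a secreted resistin-like protein of myeloid cells. The secondary granule proteins are cathelicidin, encoded by Camp (ENSMUSG00000038357, chr9:109847379-109849617, minus), neutrophilic granule protein, encoded by Ngp (ENSMUSG00000032484, chr9:110419747-110423012, plus), lactoferrin, encoded by Ltf (ENSMUSG00000032496, chr9:111019271-111042767, plus), and lipocalin-2, encoded by Lcn2 (ENSMUSG00000026822, chr2:32384633-32388252, minus). Coordinates are those of GRCm38, and no other annotated gene overlaps any of the 10.

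C/EBP epsilon drives the secondary granule genes in maturing neutrophils, so the sequence before the start is shown for 3 of the granule genes, with that of Ly6g, whose counts part from the rest below. Capitals mark matches to a C/EBP core, TTGCNNAA, on either strand. Each sequence begins 250 bases before the start of the RefSeq promoter table (GRCm38.p6) and ends at the last base before the gene as placed above, which in all 4 lies upstream of the RefSeq start, and runs 5′ to 3′ on the strand of the gene. The Lcn2 window lies inside the gene as placed above and is not printed.
Ngp, chr9:110419558-110419746, plus strand: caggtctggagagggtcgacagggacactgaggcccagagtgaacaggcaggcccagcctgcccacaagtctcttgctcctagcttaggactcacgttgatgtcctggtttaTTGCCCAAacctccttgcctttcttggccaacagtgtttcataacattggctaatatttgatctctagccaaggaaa
Camp, chr9:109849618-109849706, minus strand: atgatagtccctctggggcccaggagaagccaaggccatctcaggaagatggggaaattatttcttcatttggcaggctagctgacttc
Ltf, chr9:111019042-111019270, plus strand: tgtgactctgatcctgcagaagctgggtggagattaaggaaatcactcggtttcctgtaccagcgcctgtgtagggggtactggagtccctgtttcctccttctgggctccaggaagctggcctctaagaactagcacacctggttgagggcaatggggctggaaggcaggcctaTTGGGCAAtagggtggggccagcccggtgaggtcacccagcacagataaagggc
Ly6g, chr15:75155011-75155239, plus strand, the first of its windows: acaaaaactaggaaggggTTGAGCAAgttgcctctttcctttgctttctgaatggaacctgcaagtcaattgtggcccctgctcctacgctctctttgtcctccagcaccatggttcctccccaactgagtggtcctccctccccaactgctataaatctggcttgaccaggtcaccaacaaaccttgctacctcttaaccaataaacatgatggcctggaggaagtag
Searched over windows of 300 bases (250 before and 50 after the RefSeq start), the C/EBP core was found in 6 of the 11 windows of the 10 genes (those of S100a9, Retnlg, Ngp, Ltf and Lcn2 and the first of the pair for Ly6g) and in 10.8% of 32851 mouse promoter windows. Ngp held a pair of matches, the other lying past the sequence shown, and Camp held none. The match in Ltf overlaps a reverse CCAAT box. A PU.1 core, GAGGAAGT, was found in S100a8 and Ly6g and in 3.2% of all windows, a CCAAT box, CCAAT, in 5 of the 10 genes and 37.4% of windows, and a TATA box, TATAAA, in 3 of the 10 and 13.6%. These are matches of letters and not measured binding.

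Among the 3 CTRL groups, all 10 genes had their highest mean in the sorted 4T1 cells and their lowest in CD8+ T cells, with CD4+ T cells between. Together they held 0.431% to 1.5% of gene counts in the 4T1 CTRL libraries, 0.0674% to 0.105% in CD4 CTRL and 0.0272% to 0.0564% in CD8 CTRL. Most of this was calprotectin: S100a8 and S100a9 alone held 0.361% to 1.29% in 4T1 CTRL. In bulk RNA, fewer cells with these transcripts and less of the RNA per cell cannot be told apart. Which cells gave the counts was not tested.

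S100a8 was at 5846, 4607, 6076, 2735 and 1572 CPM in the 4T1 CTRL libraries, 262, 252, 258, 301 and 357 in CD4 CTRL and 136, 123, 216, 197 and 208 in CD8 CTRL. Every 4T1 CTRL library lay above every T cell library, and every CD4 CTRL library above every CD8 CTRL library. S100a9, its partner, was at 6685, 5505, 6787, 3574 and 2038 CPM in 4T1 CTRL, 276, 328, 357, 413 and 451 in CD4 CTRL and 128, 118, 228, 244 and 269.3 in CD8 CTRL. The order of the populations was that of S100a8, again with no overlap. S100a8 was 3.99 (SE 0.34) higher on the log2 scale in 4T1 than in CD4 (edgeR adjusted p = 2.45e-06) and 4.61 (SE 0.35) higher than in CD8 (adjusted p = 3.12e-07). For S100a9 the differences were 3.87 (SE 0.34) and 4.68 (SE 0.35). Per 1000 counts of S100a8 there were 1120 to 1310 of S100a9 in the 5 4T1 CTRL libraries, 1050 to 1380 in CD4 CTRL and 938 to 1290 in CD8 CTRL. Among the C269 libraries the proportion was highest in library 27, at 3220, on 157 counts of S100a8.

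The secondary granule genes Camp and Ngp had the steepest step among the members from 4T1 to CD4. Ngp was at 568.4, 294, 626, 126 and 152 CPM in 4T1 CTRL, 13.2, 19.9, 15.5, 5.50 and 17.9 in CD4 CTRL and 9.47, 5.94, 15.3, 16.2 and 14.7 in CD8 CTRL. Camp was at 276, 152, 272, 65.5 and 60.3 CPM in 4T1 CTRL, 6.37, 7.90, 4.45, 3.00 and 9.34 in CD4 CTRL and 3.07, 1.42, 4.49, 3.46 and 2.15 in CD8 CTRL. For both, the T cell groups overlapped each other and lay far under every 4T1 CTRL library. The 4T1 minus CD4 difference was 4.75 (SE 0.51) for Ngp and 4.86 (SE 0.50) for Camp on the log2 scale.

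Lactoferrin and lipocalin-2 had a smaller step from 4T1 to CD4 than Camp and Ngp. Ltf was at 206, 155, 255, 68.98 and 118 CPM in 4T1 CTRL, 35.4, 20.3, 24.8, 20.2 and 32.5 in CD4 CTRL and 7.93, 1.70, 7.49, 6.54 and 18.2 in CD8 CTRL. Lcn2 was at 310.3, 380.3, 325, 223 and 231 CPM in 4T1 CTRL, 51.7, 95.7, 125, 223 and 136 in CD4 CTRL and 26.4, 12.7, 14.7, 20.01 and 29.7 in CD8 CTRL. Lcn2 in CD4 library 14 reached the lowest 4T1 CTRL library, so these groups touched, and all CD8 CTRL libraries lay under all CD4 CTRL libraries for both genes. Library 14 stood apart from the other CD4 CTRL libraries, with T cell markers at 1219 CPM against 2609 to 2900 and macrophage and monocyte markers at 4044 CPM against 1033 to 2258. The 4T1 minus CD4 difference was 1.34 (SE 0.31) for Lcn2, the smallest among the 10 genes, and 2.72 (SE 0.44) for Ltf (edgeR adjusted p = 0.00831 and 0.00064).

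The surface genes were far less abundant. Csf3r was at 31.6, 28.96, 34.3, 32.6 and 9.35 CPM in 4T1 CTRL, 2.04, 3.16, 3.51, 6.25 and 6.31 in CD4 CTRL and 0.256, 1.13, 0, 0.385 and 0.715 in CD8 CTRL, where the 5 libraries together held 8 counts. Ly6g was at 26.7, 18.7, 25.1, 9.03 and 9.70 CPM in 4T1 CTRL, 0.255, 3.61, 0.234, 4.00 and 1.01 in CD4 CTRL and 0.512, 1.70, 3.89, 1.54 and 0.715 in CD8 CTRL. Neither gene's 4T1 CTRL libraries overlapped those of the T cells. Cxcr2 was uneven within 4T1 CTRL, at 51.5, 8.09, 38.1, 50.2 and 1.73 CPM, against 5.60, 4.51, 3.04, 13.5 and 1.01 in CD4 CTRL and 0.768, 0.849, 1.80, 1.54 and 3.93 in CD8 CTRL. Libraries 2 and 5 of 4T1 CTRL fell within the range of the CD4 libraries.

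Retnlg, the resistin-like gene, was at 545, 396, 578, 123 and 122 CPM in 4T1 CTRL, 21.6, 22.8, 28.6, 16 and 40.4 in CD4 CTRL and 9.47, 4.81, 11.4, 18.9 and 16.4 in CD8 CTRL. Libraries 4 and 5 were the low ones of 4T1 CTRL, as they were for Ngp, Camp and Ly6g, and still lay above every T cell library.

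**Figure D1:**
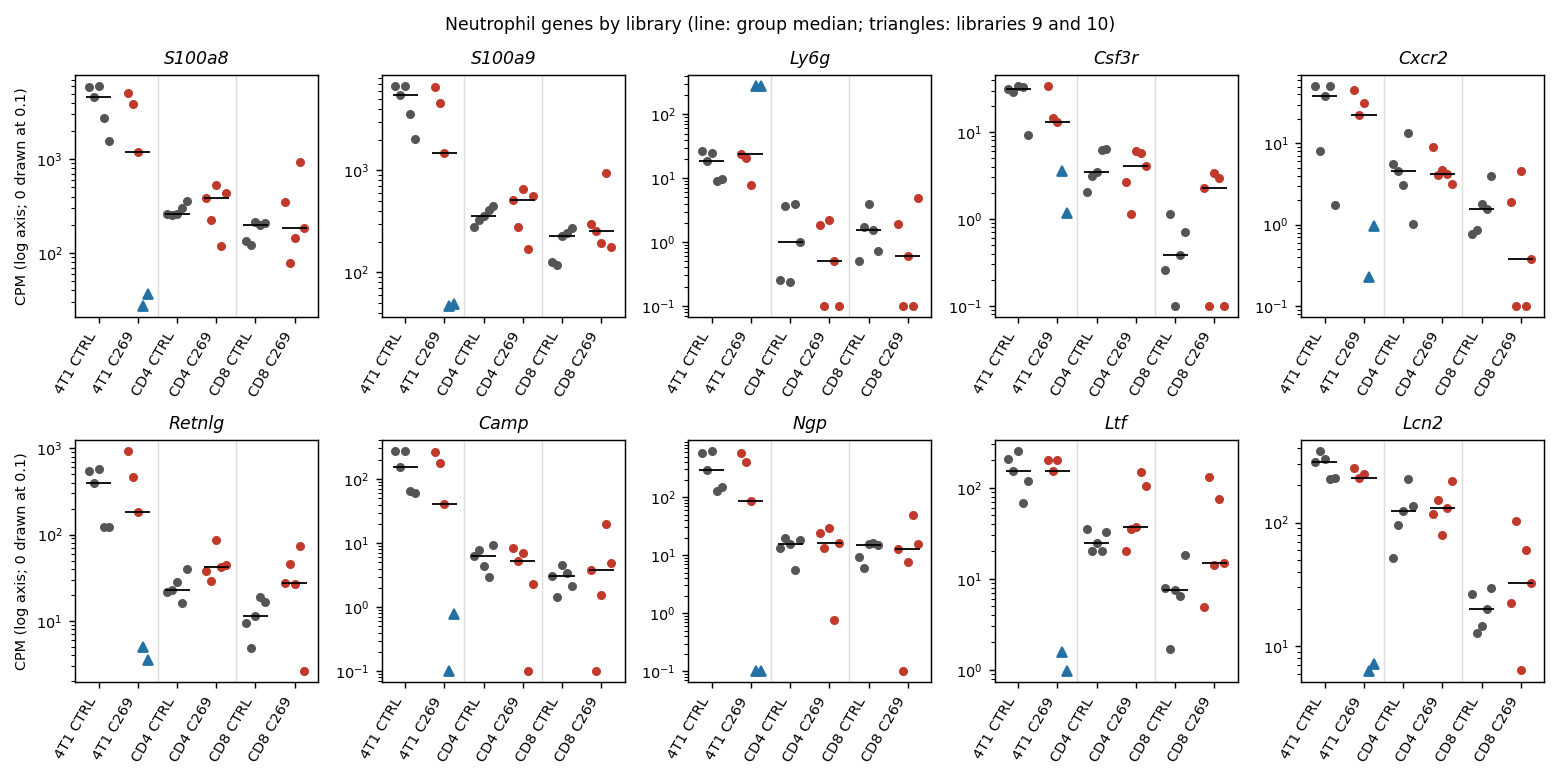
Level of each of the 10 genes in all 30 libraries, in CPM on a log axis (0 is drawn at 0.1), by population and treatment. Each point is a library, grey for CTRL and red for C269, the line is the group median, and blue triangles are libraries 9 and 10. S100a8 sits at 1572 CPM or more in every 4T1 CTRL library and at most at 357 in the T cell CTRL libraries, and libraries 9 and 10 are the lowest 4T1 libraries for 9 of the genes and the highest of all for Ly6g.

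Per kilobase of merged exons, which allows genes to be compared, S100a9 was the highest in 4T1 CTRL at 9421 ± 3957 CPM per kb (mean ± SD, n = 5), followed by S100a8 at 6004 ± 2831. Their means lay within the spread between libraries, but S100a9 was above S100a8 within each of these 5 libraries. Then came Retnlg at 595 ± 372, Ngp at 289 ± 190.3, Camp at 218 ± 139 and Lcn2 at 112 ± 25.4 CPM per kb, each within the spread of the next. Within each of these libraries Retnlg was also above Ngp and Ngp above Camp, while Lcn2 was above Camp in library 5. Ltf, below Lcn2 by more than the spread of either, was at 46.5 ± 21.1 and Ly6g at 18.96 ± 8.82 CPM per kb. The receptors Cxcr2 and Csf3r closed the order at 9.82 ± 7.72 and 7.58 ± 2.84 CPM per kb and did not differ beyond their spread. In CD4 CTRL the order differed in the place of Lcn2, behind only calprotectin at 48.2 ± 24.1 CPM per kb beside Retnlg at 43.6 ± 15.6, while Ngp stood at 11.8 ± 4.55. In CD8 CTRL Retnlg followed calprotectin again at 20.6 ± 9.43 CPM per kb, ahead of Ngp at 10.1 ± 3.61 and Lcn2 at 7.89 ± 2.78.

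In edgeR's quasi-likelihood test with Benjamini-Hochberg adjustment, fitted to the 15 CTRL libraries, all 9 genes that also had enough counts to be tested in CD4 libraries alone were higher in 4T1 than in CD4, and Ly6g, which entered through the 4T1 libraries, was too. Of all 13201 genes tested, 7.01% were called higher in this direction. Against CD8 the 6 genes with enough counts in CD8 libraries were all higher in 4T1, as were Ly6g, Csf3r, Cxcr2 and Camp, which entered through other groups, on a background of 22.7%. The groups did not overlap for 8 of the 10 genes against CD4 and for 9 of 10 against CD8, where 2.82% and 13.7% of tested genes were separated and higher. The call for Cxcr2 against CD4 (difference 2.58, SE 0.74, adjusted p = 0.0284) was lost in 6 of the 15 fits that left a library out (1, 4, 11, 12, 13 or 15). All 5 erythroid and all 6 fibroblast markers passed as higher in 4T1 against CD4 and against CD8, and 2 and 6 of 12 macrophage and monocyte markers, with 1 lower against CD8. The summed ranges of 4T1 and CD4 overlapped for all 3 lists. The 5 erythroid markers summed to 181.6 to 26840 CPM in 4T1 CTRL against 222.6 to 526.9 in CD4 CTRL and 230.9 to 569.4 in CD8 CTRL, the 6 fibroblast markers to 3162 to 53810 against 584.4 to 6077 and 330.7 to 893.5, and the macrophage and monocyte markers to 1401 to 7619 against 1033 to 4044 and 1190 to 2392. Their part in the differences was not tested.

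Between the T cell populations, CD8 CTRL was lower than CD4 CTRL for Csf3r, Ltf and Lcn2, with differences of -2.92 (SE 0.60), -1.60 (SE 0.45) and -2.51 (SE 0.33) on the log2 scale (edgeR adjusted p = 0.00326, 0.0257 and 7.30e-05). Ltf and Lcn2 had enough counts in CD8 libraries, and Csf3r entered through the other groups. Of all genes tested, 9.09% were called lower in CD8. S100a8 at -0.62 (SE 0.30) and S100a9 at -0.81 (SE 0.31) did not pass (adjusted p = 0.211 and 0.0987), although their libraries did not overlap, and Ngp at -0.18 (SE 0.48) and Ly6g at -0.03 (SE 0.73) were the smallest differences of the 10. S100a8, S100a9, Ltf and Lcn2, 4 of the 6 genes with enough counts in CD8 libraries, were lower without overlap, as was Csf3r, against 11.6% of tested genes. The Ltf call (CD8 minus CD4) was lost in 6 of 15 fits with a library left out (11, 15, 21, 22, 23 or 24), and S100a9 passed without library 5. Markers of simple epithelium (7 genes, Krt8 and Epcam among them) were lower as well, at 213.2 to 332.3 CPM summed in CD4 CTRL and 35.9 to 107 in CD8 CTRL, with 5 of 6 tested markers lower and 1 (Cdh1) higher past the threshold. Their part was not tested.

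**Figure D2:**
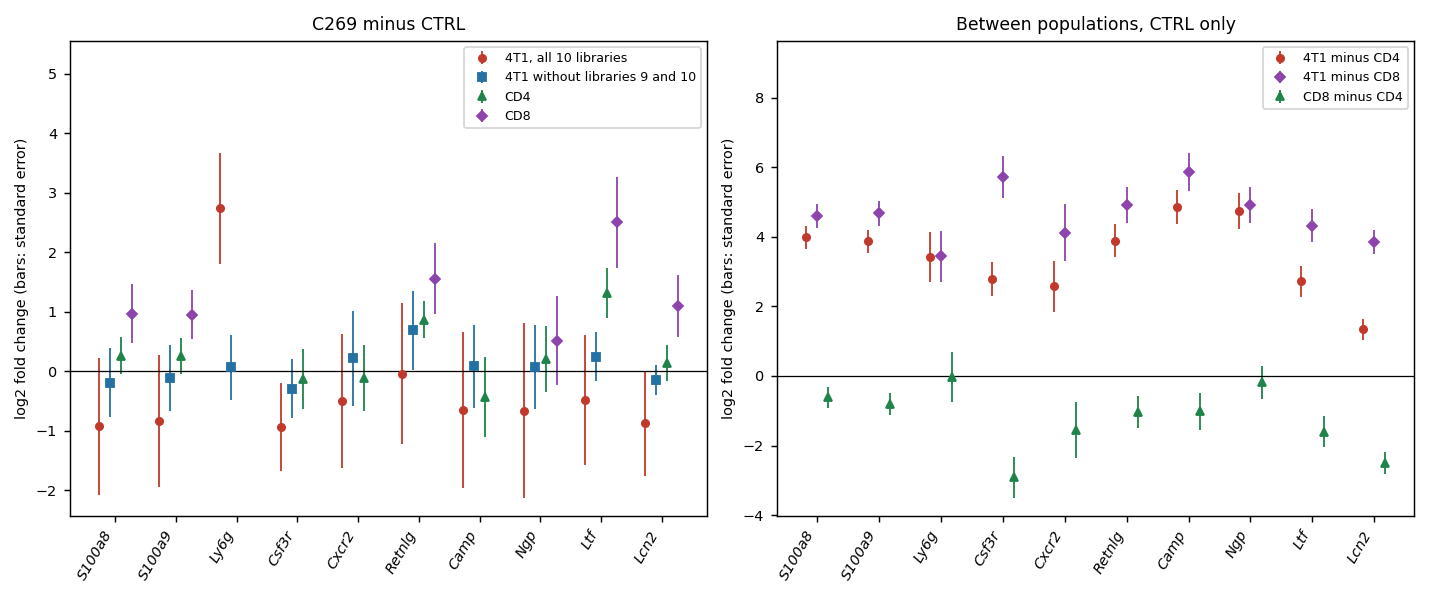
Difference of each gene on the log2 scale with its standard error, from edgeR. The left panel gives C269 minus CTRL in 4T1 with and without libraries 9 and 10, in CD4 and in CD8, for genes with enough counts, and the right panel gives the differences between populations in CTRL libraries. In 4T1 the values of the other 9 genes, -0.94 to -0.04, move to between -0.29 and 0.69 once libraries 9 and 10 are left out, and Ly6g moves from 2.74 to 0.07.

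Other neutrophil genes, grouped by role, were mostly higher in 4T1 than in T cells, beside backgrounds of 7.01% against CD4 and 22.7% against CD8. Of 15 secondary and tertiary granule genes beside the 10, 13 were tested, and 10 were higher in 4T1 CTRL than in CD4 CTRL and 13 higher than in CD8 CTRL. Some of these entered through the groups where they were high: of the 12 with enough counts in CD4 libraries 9 were higher, and of the 10 with enough in CD8 libraries 10. Lyz2, Arg1 and Cybb were the highest of this list in 4T1 CTRL, at means of 1603, 458 and 447 CPM. Within 4T1 CTRL the list summed highest in library 4 (6182 CPM), as did macrophage and monocyte markers (7619 CPM). Its sums were lowest in libraries 1 and 3 (2535 and 2508 CPM), the highest in Ngp and Camp. The part of macrophages was not tested. The collagenase Mmp8 was at 106 ± 42.7 CPM in 4T1, 9.01 ± 3.29 in CD4 and 6.89 ± 1.63 in CD8, with a 4T1 minus CD4 difference of 3.64 (SE 0.29). Of 26 mature surface and cytosol genes, 24 were tested, with 19 higher in 4T1 than in CD4 (18 of the 23 with enough counts in CD4 libraries) and 19 higher and 1 lower than in CD8 (17 higher of the 22 with enough counts in CD8 libraries). Between CD8 and CD4, 3 of 13 and 3 of 24 were lower in CD8, at medians of -0.32 and -0.37, beside 9.09% of all genes and a median of -1.02 over the 10 members. Stfa2, a cystatin family inhibitor of proteases, was higher in 4T1 than in CD4 by 4.00 (SE 0.59) and the receptor Trem1 by 2.95 (SE 0.36). The median difference over these lists was 1.66 and 2.62 against CD4, beside 3.64 for the 10 genes and near 0 over all genes.

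The ligands of the receptors followed in part. A list of ligands held those of CXCR2 and of the G-CSF receptor with Mif and Pf4, and 8 were tested. Of these, 4 were higher in 4T1 than in CD4 (Cxcl1, Cxcl2, Cxcl3 and Ppbp) and all 8 higher than in CD8. Among the 7 with enough counts in CD4 libraries 3 were higher, and among the 7 with enough in CD8 libraries 7. Over all genes tested, 7.01% were called higher in 4T1 than in CD4 and 22.7% higher than in CD8. Cxcl2, a CXCR2 ligand, was at 8668 ± 2509 CPM in 4T1 CTRL, 2576 ± 517 in CD4 CTRL and 2199 ± 956 in CD8 CTRL. Csf3, which encodes G-CSF, was at 37.5 ± 12.8 CPM in 4T1 CTRL and 29.8 ± 11.3 in CD4 CTRL, a difference of 0.43 (SE 0.34) that did not pass (edgeR adjusted p = 0.451), and at 5.52 ± 2.55 in CD8 CTRL. As with its receptor gene Csf3r, Csf3 was lower in CD8 than in CD4 past the threshold, at -2.33 (SE 0.37). Cxcl5 was too, at -2.47 (SE 0.50), where 9.09% of all genes tested were called lower in CD8.

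Within 4T1, no member passed edgeR's quasi-likelihood test of C269 against CTRL, and DESeq2 called Ly6g alone of the 10. With Benjamini-Hochberg adjustment over all genes, edgeR called 0 of 12875 genes (0%), with 1557 at an unadjusted p under 0.05 and 998 called by DESeq2. All 10 genes overlapped between C269 and CTRL libraries here, as they did in CD4 and in CD8, where 2.3%, 0.71% and 1.24% of tested genes did not. S100a8 was at 5019, 3871, 1185, 27.4 and 36.3 CPM in the 5 C269 libraries. Libraries 6 and 7 lay within the CTRL range, library 8 was under the lowest CTRL library, and 9 and 10 were lower than any T cell library. S100a9 was at 6523, 4569, 1491, 46.9 and 49.3 CPM, with the same order of libraries. The difference for S100a8 was -0.93 (SE 1.15) on the log2 scale with all libraries (edgeR adjusted p = 0.783) and -0.19 (SE 0.58) without libraries 9 and 10.

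The granule genes were absent or nearly so in libraries 9 and 10. Ngp was at 564, 396, 84.2, 0 and 0 CPM: 0 counts in library 10 allow up to 0.58 CPM, the worth of 3 counts, and 0.674 CPM in library 9. Camp was at 267, 180.2, 40.6, 0 and 0.773 CPM, Ltf at 199.8, 155, 202, 1.57 and 0.966 and Lcn2 at 274, 229, 247, 6.29 and 7.15 CPM. Libraries 6 and 7 were within the CTRL range for Ngp, Camp, Ltf and Lcn2, and library 8 was below it for Ngp and Camp and inside it for Ltf and Lcn2. The differences with all libraries were -0.66 (SE 1.48) for Ngp, -0.65 (SE 1.31) for Camp, -0.49 (SE 1.09) for Ltf and -0.87 (SE 0.88) for Lcn2, and 0.08, 0.08, 0.25 and -0.15 without libraries 9 and 10.

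Retnlg was at 933, 465.7, 182, 4.94 and 3.48 CPM in 4T1 C269, with library 6 above every CTRL library. Csf3r was at 33.9, 14.6, 13.2, 3.59 and 1.16 CPM and Cxcr2 at 46.05, 22.1, 31.6, 0.225 and 0.966 CPM. Each of the 3 was lower in libraries 9 and 10 than in every 4T1 CTRL library. Without those libraries the difference was 0.69 (SE 0.67) for Retnlg, -0.29 (SE 0.50) for Csf3r and 0.22 (SE 0.80) for Cxcr2.

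Ly6g went the other way. It was at 23.9, 20.9 and 7.84 CPM in libraries 6 to 8, within or just under the CTRL range of 9.03 to 26.7, and at 282 CPM (1257 counts) in library 9 and 278 CPM (1441 counts) in library 10. For each 1000 counts of S100a8 there were 10300 and 7660 of Ly6g in these libraries and at most 26.2 in the other 28. With all libraries Ly6g was 2.74 (SE 0.93) higher in C269, which edgeR did not call (adjusted p = 0.359). DESeq2 called it (2.78, SE 0.86, adjusted p = 0.0293), among 3.14% of tested genes called higher by that tool, and so did the authors' deposited table, with a log2 ratio of CTRL over C269 of -2.46 and an adjusted p of 0.0347, among 2.3% of genes called higher in C269. Without libraries 9 and 10 the edgeR difference was 0.07 (SE 0.55).

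The genes around Ly6g on chromosome 15 were not all higher in libraries 9 and 10. Ly6a, the gene of the stem cell antigen Sca-1, was at 899 and 877 CPM there against 410 ± 414 in 4T1 CTRL (mean ± SD, n = 5). It reached 1147 CPM among the other 28 libraries. Ly6c2, a marker of monocytes, was at 9.43 and 10.2 CPM against 115 ± 44.5 and against 244 to 676 in libraries 6 to 8, and Ly6c1 at 170 and 149.7 CPM against 251 ± 304. BC025446, downstream of Ly6g, was at 16.8 and 18 CPM against 0.611 ± 0.847 and at most 4.66 in the other 28 libraries. These genes are related in sequence, and how reads that match several genes were counted is not given in the sources used here, so the split of counts among them is uncertain.

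**Figure D3:**
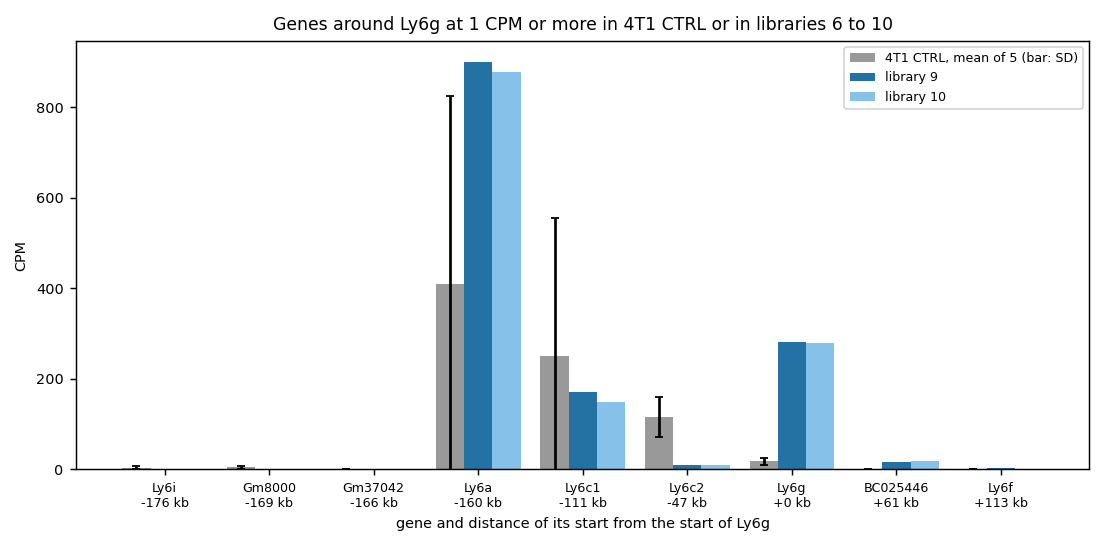
Level in CPM of the genes within 200000 bases of Ly6g that reach 1 CPM, ordered by the distance of their start from that of Ly6g in kilobases. Grey bars are the mean of the 5 4T1 CTRL libraries with the SD, which for Ly6a and Ly6c1 reaches below 0 and is cut there, and blue bars are libraries 9 and 10. Ly6g is at 282 and 278 CPM in libraries 9 and 10 against 17.9 in CTRL, while Ly6c2 is lower there than in CTRL.

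No marker of other cells passed the edgeR test of C269 in 4T1, with or without libraries 9 and 10. This does not set the markers apart, since edgeR called 0 of 12875 genes with these libraries and 0 of 13750 without them. The levels of the markers varied between libraries, and their part in the members' values was not tested. The 7 simple epithelium markers summed to 226.5 to 577 CPM in 4T1 CTRL. In 4T1 C269 the sums were 580.5, 365.6 and 1609 CPM in libraries 6 to 8. They were 5933 and 5748 CPM in libraries 9 and 10, and all 7 markers were detected in every C269 library. The 6 B cell markers summed to 142.7 to 3869 CPM in CTRL and 5743 to 23350 in C269 (8905 to 23350 without libraries 9 and 10). The 5 erythroid markers, detected throughout, summed to 25070, 1499, 26840, 182 and 714 CPM in CTRL and 38120, 11500, 8999, 85.3 and 81.5 in C269. Libraries 1, 3 and 6, high in S100a8, were high in them too and libraries 9 and 10 were low. Libraries 2 and 8 went the other way when set against each other, with S100a8 at 4607 and 1185 CPM and erythroid markers at 1499 and 8999 CPM. Within its own group each held the middle place in both. The 8 tested ligand genes were all lower in C269, at a median of -1.63, and 8 of 9 without libraries 9 and 10, at a median of -0.99, where all genes had medians of 0.04 and 0.0012. None of them passed. Cxcl1 differed by -2.14 (SE 1.18) and, without libraries 9 and 10, by -1.39 (SE 0.65).

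In CD4+ T cells C269 left no member past the threshold, with edgeR calling 0 of 12393 genes (0%; 697 at an unadjusted p under 0.05, and 17 by DESeq2 after adjustment, no member among them). Ltf was at 20.2, 34.9, 36.9, 148 and 106 CPM in CD4 C269 against 20.2 to 35.4 in CTRL. Libraries 19 and 20 were high and the other three lay in or close to the CTRL range. The difference of 1.32 (SE 0.42) did not pass (edgeR adjusted p = 0.743), and passed where no filter on low counts was applied (1.30, adjusted p = 0.000364), among 0.276% of genes called higher. Retnlg was at 37.5, 28.9, 86.8, 41.9 and 44.01 CPM against 16 to 40.4 in CTRL, a difference of 0.87, SE 0.31 (adjusted p = 0.794). All 5 libraries were above the CTRL median, and library 18 was the highest.

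In library 19 the members parted from each other. Ltf was at its highest of the 10 CD4 libraries, while S100a8 at 118 and S100a9 at 168 CPM were at their lowest, Ngp was at 0.748 CPM (3 counts) and Camp at 0. For each 1000 counts of S100a8 this library held 1250 of Ltf and 1120 of Lcn2, against 67.3 to 135 and 198 to 742 in CD4 CTRL. Its simple epithelium markers summed to 661 CPM and those of library 20 to 791, against 213.2 to 332.3 in CD4 CTRL, and their part in the Ltf counts was not tested. S100a8, S100a9, Ngp, Lcn2, Csf3r, Cxcr2 and Camp differed between CD4 C269 and CD4 CTRL by -0.43 to 0.26 on the log2 scale, none past the threshold, and Ly6g had too few counts to be tested (0 to 16 per library).

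In CD8+ T cells, 6 members had enough counts, all with higher means in C269, and none passed, where edgeR called 1 of 10943 genes (0.00914%; 725 at an unadjusted p under 0.05, and 18 by DESeq2 after adjustment, no member among them). Ltf was at 4.94, 131, 14.1, 75.1 and 14.9 CPM in CD8 C269 against 7.93, 1.70, 7.49, 6.54 and 18.2 in CTRL. Libraries 27 and 29 were high, the others inside the CTRL range. The difference of 2.50 (SE 0.76) had an edgeR adjusted p of 0.739. Lcn2 was at 22.4, 102, 6.42, 60.3 and 32.4 CPM against 12.7 to 29.7 in CTRL, with the same 2 libraries highest and a difference of 1.10 (SE 0.53).

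S100a8 was at 351, 78.3, 145, 923 and 185 CPM in CD8 C269 and S100a9 at 298, 252, 194, 949.5 and 177 CPM. Library 29 was far above the others for both, and for Camp (19.8 CPM) and Ngp (49.9 CPM). Library 27 was at the other end for S100a8 and held 0 counts of Ngp and of Camp, which allows up to 1.5 CPM. The differences were 0.97 (SE 0.49) for S100a8, 0.95 (SE 0.42) for S100a9 and 0.52 (SE 0.76) for Ngp (edgeR adjusted p = 0.752, 0.742 and 0.912). With no filter on low counts, Ltf (adjusted p = 1.24e-06), S100a8 (0.00193) and S100a9 (0.00201) passed, among 0.525% of genes called higher. Ngp turned to -0.43 without library 29, and S100a8 and S100a9 were at 0.11 and 0.21.

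Retnlg was at 27.4, 45.9, 26.6, 74.1 and 2.61 CPM in CD8 C269 against 9.47, 4.81, 11.4, 18.9 and 16.4 in CTRL. The first 4 of these C269 libraries lay above every CTRL library and library 30 below them all. The difference was 1.55, SE 0.60 (edgeR adjusted p = 0.739). Other cells' markers moved in the same libraries: simple epithelium summed to 554 CPM in library 27 and 253 in library 29 against 35.9 to 107 in CD8 CTRL, and erythroid markers to 2969 CPM in library 29 against 230.9 to 569.4. Libraries 27 and 29 were also the shallowest of the 30, with 2005579 and 2024270 gene counts. The part of markers and depth in these values was not tested.

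Whether the effect of C269 differed between populations was tested as an interaction over all 30 libraries. None of the 10 members passed in any of the 3 contrasts, in which edgeR called 0.00679%, 0.00679% and 0% of 14731 genes. The Ly6g effect was lower in CD4 than in 4T1, at -3.74, SE 1.34 (adjusted p = 0.375), and became -1.03 (SE 1.28) without libraries 9 and 10. For Ltf the CD8 effect exceeded the 4T1 effect by 2.93, SE 1.27 (adjusted p = 0.25), and by 2.19 (SE 0.94) without these libraries. S100a8 and S100a9 differed by 0.66 (SE 1.13) and 0.65 (SE 1.07) between CD8 and CD4.

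The libraries of a group differed widely, and this made it possible to see which members went up and down together. Pearson's r was taken over log2(CPM + 1) in the 28 libraries other than 9 and 10 after each group's mean was removed; the libraries share their preparation and their totals, and r is a description only. Ngp and Camp had r = 0.95 (Spearman's rho 0.90) and 0.94 without the 2 libraries farthest from the median in Ngp, 19 and 27. S100a8 had r = 0.91 with S100a9, 0.88 with Ngp and 0.88 with Camp. Together these 4 genes form a block. With S100a8, Retnlg had r = 0.56 and Csf3r 0.50 (0.65 and 0.35 without libraries 27 and 29). Retnlg had 0.40 with Camp and 0.33 with Ngp, and Csf3r had 0.22 and 0.26.

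Ltf and Lcn2 stood outside that block. Ngp and Ltf had r = -0.21 (rho -0.02), and 0.32 without libraries 19 and 27, so the sign rests on those libraries. Ltf and Lcn2 went with each other (r = 0.59, rho 0.59, and 0.49 without libraries 27 and 28) and with the summed simple epithelium markers, at r = 0.72 for Ltf and 0.73 for Lcn2 (0.65 and 0.48 without libraries 27 and 28), where Ngp had -0.40 (-0.22 without them). Ltf also had r = 0.46 with the summed B cell markers and 0.45 with the summed fibroblast markers. For these, Lcn2 had -0.02 and 0.31 and Ngp 0.305 and 0.36. The C/EBP core stands in the windows of Ngp, Ltf and Lcn2 and not in that of Camp. S100a8 had r = 0.74 (rho 0.83) with the summed erythroid markers and Ngp 0.67. Ly6g had r = 0.32 with S100a8 (0.47 without libraries 27 and 29), 0.38 with Camp and 0.35 with Ngp, on counts of 0 to 16 in every T cell library.

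**Figure D4:**
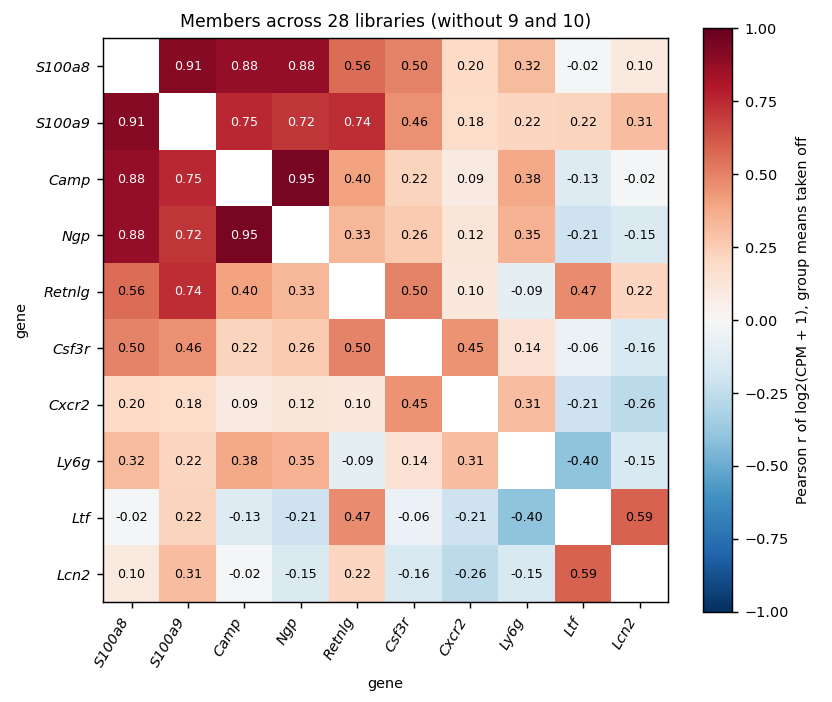
Pearson's r between the 10 genes over log2(CPM + 1) in 28 libraries, without libraries 9 and 10, after the mean of each of the 6 groups was removed. Both axes list the genes, and red is positive and blue negative. S100a8, S100a9, Camp and Ngp share values from 0.72 to 0.95, and Ltf and Lcn2 share 0.59 and have values near 0 or below with most of that block.

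**Figure D5:**
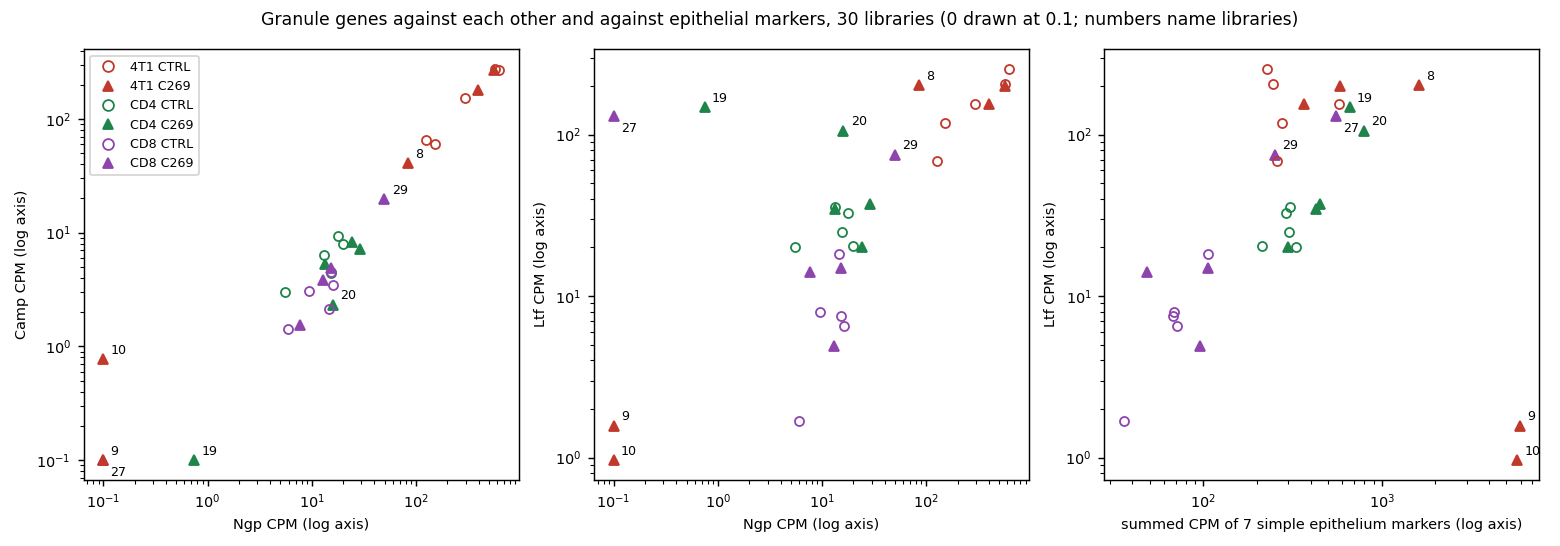
Camp against Ngp, Ltf against Ngp, and Ltf against the sum of 7 simple epithelium markers, in CPM on log axes (0 is drawn at 0.1). Each point is a library, open circles CTRL and filled triangles C269, coloured by population, and numbers name libraries 8, 9, 10, 19, 20, 27 and 29 where drawn. Camp follows Ngp over all libraries, whereas Ltf is at 148 and 131 CPM in libraries 19 and 27, which hold 3 and 0 counts of Ngp.

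Among the other genes tested, those most like S100a8 over all 30 libraries were Cstdc5 (r = 0.98), Stfa2 (0.97), Wfdc21 (0.96), Trem1 (0.96) and Hcar2 (0.95). Within groups over 28 libraries they were Stfa2 (0.89), Wfdc21 (0.86), Acod1 (0.84), Cstdc5 (0.83) and Prok2 (0.83). Ngp had Stfa2 (0.87), Acod1 (0.81), Traf6 (0.79), Hdc (0.79) and Iqcb1 (0.78) nearest within groups. For Lcn2 they were Sox9 (0.83), Rab20 (0.81), Wfdc2 (0.80), Sdc1 (0.79) and Plscr2 (0.79), and Stfa2 was not among them. Ly6g over all 30 libraries was closest to Ceacam10 (0.88), Mapk13 (0.88), Ppargc1a (0.87), Slc27a4 (0.86) and Tac1 (0.86), and none of these was among its nearest 5 within groups once libraries 9 and 10 were left out. The values over 30 libraries follow the order of the populations, and those of Ly6g follow libraries 9 and 10.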

How the data were processed

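RNA from 30 samples in 6 groups of 5 was sequenced as standard Illumina libraries on a NextSeq instrument, per the labels' protocols. The authors deposited 3 tables, 1 for each cell population, with raw read counts for each gene and library; featureCounts, FastQC and DESeq2 are named in the submitters' processing notes without versions, and the aligner is not given in the sources used here. Those notes name mm9 as the build, but 54928 of the 55141 gene identifiers found in GENCODE M21 had the start given there for GRCm38, so GRCm38 is used. The deposited tables also hold the authors' DESeq2 columns: a signal (mean normalised count), which was not used, log2 fold changes with their errors, a test score, which was not used, and p-values with adjusted p-values. Each library column was placed in its group because 1 set of 5 columns summed to the group's deposited count column in 100% of rows; which replicate letter a column carries is not known, so libraries are numbered as in the file headers.

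The 7 ribosomal RNA features (0.579% to 7.95% of counts) were left out of totals and tests. Levels are CPM of counts assigned to genes, with lengths from merged exons. Differences were tested in R 4.3.3 with edgeR 4.0.16 (filterByExpr, TMM, quasi-likelihood test), with Benjamini-Hochberg adjustment over all genes tested and a threshold of 0.05. The alternatives were DESeq2 1.42.0, its size factors in edgeR, no filter, other samples in the fit and leaving out libraries. Leaving out libraries 9 and 10 under DESeq2 and summing libraries 1 and 3 were added after the data were seen. Libraries 1 and 3 were the most alike pair of 4T1 CTRL, with a mean chi-square per gene of 5.19 against 24.9 to 82 for the other pairs, which is above counting noise; whether they come from related material is not known, and if they do, the n of 5 in 4T1 CTRL is too high. The code was tested on simulated data: of genes changed 4-fold in the 4T1 comparison, edgeR recovered 45.9% and DESeq2 60.7%.

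The members and the 13 gene lists (133 of 135 genes found) were chosen with earlier results of these data known. All 10 members are named in every comparison. From each list the 3 genes highest in 4T1 CTRL (in all libraries for other cell types) and any neutrophil list gene past the threshold could be named, and for S100a8, Ngp, Ly6g and Lcn2 the 5 genes with the highest r. The neighbours of Ly6g, Epcam, Cdh1, Elane and Ctsg were named after their values were seen. A gene at 0 counts is given a limit of 3 counts, which covers counting error only, since reads without molecular identifiers are not independent molecules.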

Additional observations from a re-analysis of the deposited data

Results flagged for a closer look

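There were 60 sets of 5 libraries (10 genes in 6 groups). In 5 of them the gap between the highest or lowest library and the next took up more than 0.71 of the whole range. Chance alone does so in about 1 in 20 sets of 5 independent, normally distributed values. The CPM used here were not on a log scale and the sets share libraries, so that rate need not hold. S100a9 was at 949.5 CPM in library 29 of CD8 C269, a gap of 0.843 of the range. Camp was at 19.8 CPM in the same library (0.755). Csf3r was at 9.35 CPM in library 5 of 4T1 CTRL, below the other four (0.787). Cxcr2 was at 9.04 CPM in library 16 of CD4 C269 (0.749) and Retnlg at 86.8 CPM in library 18 of that group (0.739). Library 29 had the second lowest total of the 30, and library 5 the highest summed fibroblast markers. The cause was not tested.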

How the results depend on the processing

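No paired analysis was possible because the replicate letters of the labels cannot be tied to the columns. Under DESeq2 1 member (Ly6g) and 998 genes passed for C269 in 4T1, against 0 and 0 in edgeR; edgeR fitted to all 30 libraries called 606 genes and no member, and DESeq2 without libraries 9 and 10 called 119. Without libraries 9 and 10, Cxcr2 (0.22), Retnlg (0.69), Camp (0.085), Ngp (0.079) and Ltf (0.25) changed sign in edgeR, and in DESeq2 they were at 0.22, 0.67, 0.066, 0.062 and 0.23. Retnlg was at 0.18 with libraries 1 and 3 summed, and Cxcr2 for 4T1 against CD4 at 2.36, no longer past the threshold. With no filter, 1 member and 83 genes passed in CD4 and 3 members and 162 genes in CD8. DESeq2 called 17 genes in CD4 and 18 in CD8, against 0 and 1 in edgeR, and 2579 for 4T1 against CD4, where edgeR called 925 higher and 754 lower. The fit of all 30 libraries called 0 genes in CD8. For the interactions DESeq2 called 75 (CD4 minus 4T1), 617 (CD8 minus 4T1) and 19 (CD8 minus CD4) genes, and edgeR without libraries 9 and 10 called 0 for CD4 minus 4T1.

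Leaving out a library in turn, the C269 difference ran from -1.10 to 0.28 for Retnlg in 4T1, from -0.35 to 0.11 for Csf3r, -0.44 to 0.47 for Cxcr2, -0.10 to 0.51 for Ngp and -0.078 to 0.41 for Lcn2 in CD4, and from -0.43 to 0.82 for Ngp in CD8. Genes called ran from 0 to 10 in CD4 and 0 to 1 in CD8, from 998 to 1938 for 4T1 against CD4 (lower by over 1.5 times without library 12, 13 or 15), and from 0 to 16, 1 to 220 and 0 to 1 for the interactions in the order above. Between CTRL populations Cxcr2 (4T1 against CD4) ran from 2.26 to 3.16, and CD8 against CD4 from -0.61 to 0.41 for Ly6g and -2.10 to -1.33 for Ltf. The CD8 minus CD4 interaction ran from -0.17 to 0.91 for S100a8, -0.058 to 0.86 for S100a9 and -0.34 to 1.47 for Ly6g. The cause of these changes was not tested. DESeq2's size factors in edgeR changed no member's direction or call (67 values), and ribosomal RNA in the totals moved mean levels by -7.18% to -1.39%. Depth limits Ly6g, Csf3r, Cxcr2 and Camp in T cells, where 3 counts are worth up to 1.5 CPM.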

Other observations

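Of 9 primary granule and promyelocyte genes found, 3 had enough counts in the CTRL comparison of populations. In CD4 libraries alone 2 of them had enough counts, and in CD8 libraries alone 2, with 1 higher and 1 lower in 4T1 each time. Over all genes tested, 7.01% were called higher in 4T1 than in CD4 and 22.7% higher than in CD8. Serpinb1a, an inhibitor of neutrophil serine proteases, was higher in 4T1 than in CD4 by 2.05 (SE 0.63) and than in CD8 by 3.30 (SE 0.69) on the log2 scale (edgeR adjusted p = 0.0413 and 0.00112). Prtn3, which encodes proteinase 3, was at 10.9 ± 9.83 CPM in 4T1 CTRL (mean ± SD, n = 5) and higher than in CD8 by 3.87 (SE 1.06). It had 0 counts in CD8 CTRL libraries 22, 23 and 25. Gfi1, a transcription factor that lymphocytes also use, was lower in 4T1 than in CD4, at -2.66 (SE 0.72). In 4T1 CTRL, elastase (Elane, 4.70 and 5.60 CPM) and cathepsin G (Ctsg, 7.06 and 6.72 CPM) had counts in libraries 1 and 3 and none in libraries 2, 4 and 5. With C269 in 4T1, 5 of 7 tested genes of the list had higher means, and 8 of 8 without libraries 9 and 10 (median 1.14), none past the threshold, while the 10 members had a median of 0.07 there.

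Receptors and partners of the secreted members were mixed. Cd33, Fpr2, Lrp1, Tlr4 and Bsg, 5 of 8 tested, were higher in 4T1 CTRL than in CD4 CTRL, and Tfrc, the transferrin receptor, was lower, at -0.84 (SE 0.21). Among the 7 with enough counts in CD4 libraries, 5 were higher and 1 lower, where 7.01% of all genes tested were called higher. Tlr4, a receptor of calprotectin, was higher by 1.75 (SE 0.48) and Fpr2, a receptor of the cathelicidin peptide, by 2.49 (SE 0.41). Lrp1, a receptor that takes up lactoferrin, was lower in CD8 than in CD4, at -1.39 (SE 0.32), in the same direction as Ltf. It was the 1 gene called lower of the 8 tested, where 9.09% of all genes were called lower.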
